A study of Sus scrofa with 207 samples.

Results

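The endothelial genes measured here are PECAM1, CDH5, CLDN5, KDR, ENG, VWF and RBP7, taken as the probe sets whose only symbol in the array annotation is one of these names. All 7 genes were present, with 12 probe sets among 23935 that are not controls, and they are 7 of 6765 genes that had a probe set with a single symbol. The array annotation gave 2 probe sets each to PECAM1, CDH5 and KDR, 3 to VWF and 1 each to CLDN5, ENG and RBP7. The samples were pieces of muscle collected when 207 pigs of the commercial cross Pix(DLxDE) were slaughtered at an average of 110 kg, with 1 Affymetrix Porcine Genome Array per animal. All animals form a single group with no treatment or genotype contrast, so each comparison is a regression of expression on a trait in the labels. Fat area over the longissimus muscle was 15.0 ± 3.15 cm2 (SD, n = 207 less 8 animals that lack it), and drip loss, the share of weight that a hung muscle sample loses as fluid, was 5.37 ± 2.22% (SD, n = 207). Neither the sex or sire of an animal nor its day of slaughter or array batch is stated in the labels used here.

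Endothelial cells line every blood vessel, and in skeletal muscle most of them lie in the capillaries that run along the fibres. They hold together through junction proteins such as VE-cadherin, respond to growth factors through receptors such as the VEGF receptor and endoglin, and store von Willebrand factor for release into the blood. RNA for such genes in a piece of whole muscle is therefore often read as a vessel signal, although an array of bulk tissue cannot tell apart fewer endothelial cells and less of the RNA per endothelial cell. The tissue label fits its defining genes: CKM, TTN, DES, TNNT3, ENO3 and PYGM averaged between 12.7 and 14.1 on a log2 scale whose values ran from 4.00 to 15.32.

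Several libraries stood apart from the rest. The median correlation of an array with the other arrays was typically 0.978, and 24 arrays lay low, down to 0.944. In another 13 arrays, counted separately, the spike-in controls stayed at or below 4.28, against 6.44 or more elsewhere. Sample titles fall into a higher number series of 33 animals and a lower one that holds the rest, and into 10 blocks of 100 title numbers. The labels do not say what these numbers mark, and results are given with and without each of these sets of arrays where they matter.

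The levels come first, on the log2 scale of the deposited values with its floor at 4, and for genes with several probe sets they are those of the one with the highest mean. PECAM1, the adhesion molecule CD31 of endothelial junctions, had a lowest value of 8.23, a median of 9.20 and a highest value of 10.03 over the 207 arrays. CDH5, VE-cadherin of the adherens junction, ran from 8.26 through a median of 9.04 to 9.93. Both were far above the floor in every animal, with an SD of 0.306 for PECAM1 and 0.294 for CDH5.

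CLDN5, the tight-junction claudin of endothelium, had a lowest value of 6.0, a median of 7.13 and a highest of 9.03. It varied most among the 7, with an SD of 0.445, larger than that of 94.5% of probe sets, and an 8.17-fold distance between the lowest and the highest array. A single array stood at 9.03 and the next at 8.13.

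KDR, the main VEGF receptor of endothelial cells, had a lowest value of 5.01, a median of 5.86 and a highest of 6.54, with an SD of 0.258. ENG, endoglin, the co-receptor for BMP9 and TGF-beta ligands, ran from 5.48 through 6.43 to 7.53, with an SD of 0.322. VWF, the secreted clotting and adhesion factor, ran from 7.28 through 8.29 to 9.56, with an SD of 0.359. No array was at the floor for these 3 genes. The mean of KDR, 5.85, lay below 6.10, the median of all probe set means, and how much of it is background was not tested.

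RBP7, a small intracellular retinol-binding protein, lay close to the floor, with a lowest value of 4.00, a median of 4.53, a highest value of 5.43 and an SD of 0.303. It was at the floor in 13 arrays, so its low end is cut off and differences there may be understated. The mean of RBP7 lay above that of only 10.1% of probe sets, and how much of it is background was not tested. The interquartile range was less than a 1.5-fold distance for each of the 7 genes (from 1.27-fold for RBP7 to 1.47-fold for CLDN5), so the spread described below is small in absolute terms.

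**Figure D1:**
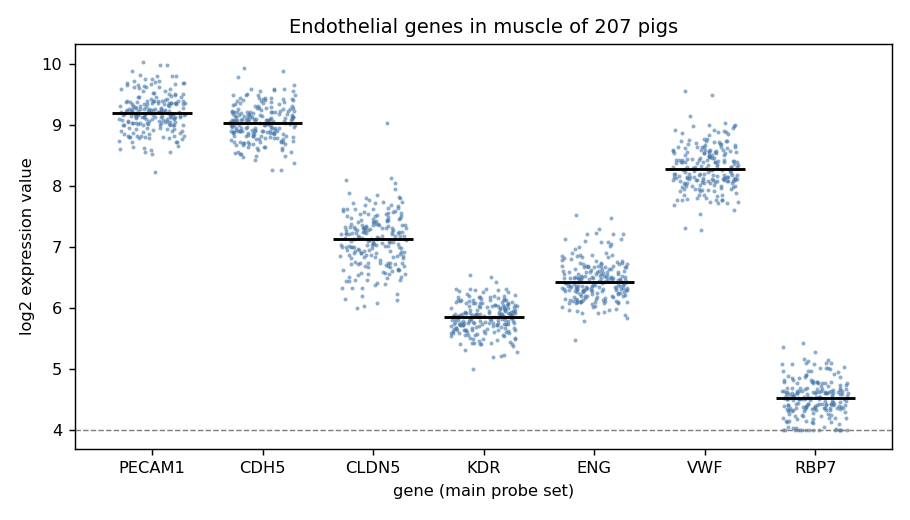
Log2 expression value of each endothelial gene in the 207 arrays, 1 point per animal at the main probe set, with the median as a black bar and the floor at 4 dashed. CLDN5 spreads most widely, with 1 array at 9.03, and RBP7 lies against the floor, where 13 of its arrays sit. Heights of different genes are not comparable, since each probe set has its own response.

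Where a gene had more than 1 probe set, the probe sets did not always move together. The other PECAM1 probe set followed the main one (r = 0.652, rho = 0.632, adjusted permutation p = 3e-05 for each, 6 such relations), and so did that of CDH5 (r = 0.515, rho = 0.498, adjusted permutation p = 3e-05 for each). The remaining VWF probe sets, dimmer than the main one, gave r = -0.0846 and r = -0.223 with it (rho -0.15 and -0.171). The adjusted permutation p was 0.226 and 0.00202 for r, and 0.0369 and 0.0273 for rho. With each other these dimmer probe sets gave r = 0.198. The KDR probe sets gave r = -0.134 (rho -0.115, adjusted permutation p = 0.0653 and 0.0991). The probe sets of PECAM1 and of CDH5 thus ranked the animals alike. The dimmer ones of KDR and VWF gave no positive correlation with the main one, and the negative rho values of VWF passed.

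PECAM1, CDH5 and CLDN5, the 3 junction genes, varied together from animal to animal. PECAM1 and CDH5 gave r = 0.605 and rho = 0.601 (adjusted permutation p = 4.2e-05 for r and 5.25e-05 for rho over 21 pairs, from the smallest p that 100000 permutations can give, 1e-05). CDH5 was the gene with the second-highest r to PECAM1 among 6764 others, and PECAM1 was first for CDH5. PECAM1 and CLDN5 gave r = 0.502 and rho = 0.513, and CDH5 and CLDN5 gave r = 0.429 and rho = 0.427, with the same adjusted p-values. Without the 2 animals farthest from the median these 3 values were 0.593, 0.499 and 0.411, and within blocks of title numbers they were 0.603, 0.541 and 0.439. In the higher number series alone they were 0.638, 0.57 and 0.534. Over all 9 alternatives the PECAM1 and CDH5 correlation stayed between 0.54 and 0.663.

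ENG and VWF formed a separate pair, with r = 0.482 and rho = 0.437 (adjusted permutation p = 4.2e-05 for r and 5.25e-05 for rho). Without the 2 animals farthest from the median r was 0.469, and within blocks it was 0.439. It was 0.362 without the 24 low-correlation arrays and 0.198 after removal of 5 principal components of all probe sets. For ENG, VWF ranked only 79th among the other genes, so many other genes followed it more closely.

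RBP7 gave r = 0.29 and rho = 0.30 with CLDN5 (adjusted permutation p = 4.2e-05 for r and 8.4e-05 for rho), r = 0.191 with PECAM1 (rho = 0.164, adjusted permutation p = 0.0158 and 0.0473) and r = 0.174 with CDH5 (rho = 0.16, adjusted permutation p = 0.0284 and 0.0473). For RBP7, CLDN5 was the 6th most similar gene of 6764. In limma over all probe sets on the level of RBP7, CLDN5 passed (adjusted p = 0.0348), while PECAM1 (0.473) and CDH5 (0.574) did not. In the reverse fits RBP7 passed on the level of CLDN5 (adjusted p = 0.00236) and of PECAM1 (0.0438), but not of CDH5 (0.115). The limma result for PECAM1 with RBP7 thus depended on which gene was the regressor. ENG was also related to CDH5 (r = 0.253, rho = 0.295, adjusted permutation p = 0.00091 and 0.000105), a value that came to 0.0554 when all probe sets of a gene were averaged. PECAM1 and VWF gave r = 0.191 and rho = 0.185 (adjusted permutation p = 0.0158 and 0.0225), and passed in 7 of 9 alternatives, with r down to 0.0785. CDH5 and RBP7 likewise passed in 7 of 9. In the higher number series alone (33 animals) r was -0.00448 for PECAM1 with VWF, -0.118 for PECAM1 with RBP7, -0.0327 for CDH5 with ENG, 0.0169 for CDH5 with RBP7, 0.13 for CLDN5 with RBP7 and 0.343 for ENG with VWF.

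In all, 9 of the 21 pairs passed for r (10 for rho), and all 9 correlations were positive. KDR passed with no other member, its values lying between -0.117 with VWF and 0.0957 with ENG, a pair that passed in 4 of the 9 alternatives. Averaging all probe sets of a gene turned the VWF and KDR correlation to 0.244, so its sign depends on the probe sets. The first principal component of the 7 genes held 32.2% of their variance, with loadings of 0.549 for PECAM1, 0.53 for CDH5 and 0.474 for CLDN5. The second held 20.6%, with loadings of 0.673 for ENG and 0.592 for VWF. KDR had loadings near 0 on both, at -0.0763 and 0.0741.

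**Figure D2:**
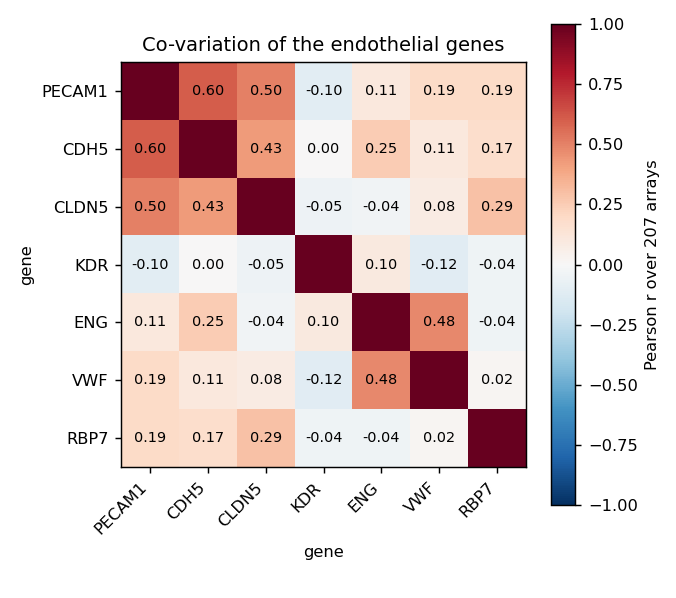
Pearson r over 207 arrays for each pair of the 7 endothelial genes at their main probe sets (colour scale from -1 to 1). The block of PECAM1, CDH5 and CLDN5 holds 0.605, 0.502 and 0.429, ENG and VWF hold 0.482, and the KDR row lies near 0.

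Each member was also set against the rest of the array. Regressing every other probe set on a member's level in limma, 9.13% of probe sets rose with PECAM1, 3.55% with CDH5 and 3.49% with CLDN5 (adjusted p under 0.05). With ENG 16.6% rose and with VWF 17.9%, against 6.15% with KDR and 0.0543% with RBP7. In those fits CDH5 rose with PECAM1 by 0.178 log2 per SD (adjusted p = 1.31e-18) and VWF rose with ENG by 0.173 (adjusted p = 7.55e-12). ENG and VWF thus moved with a large share of the array, and RBP7 with almost none of it.

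Array properties varied along with several members. Control transcripts are read at both ends, and how far the 3' probe sets lie above the 5' ones is a measure of RNA integrity. It gave r = 0.367 (rho = 0.352) with ENG and r = 0.389 (rho = 0.431) with VWF, each with an adjusted permutation p of 7.41e-05 for r over all relations of this kind. Leaving out the 2 animals farthest from the median gave 0.39 and 0.424. The same measure also passed with KDR (r = -0.234, adjusted permutation p = 0.0031), CLDN5 (r = -0.2, 0.0138) and PECAM1 (r = 0.164, 0.0463). ENG averaged 6.76 ± 0.523 in the 24 low-correlation arrays and 6.42 ± 0.263 in the others (SD), and VWF 8.54 ± 0.550 and 8.28 ± 0.317. PECAM1, CDH5 and CLDN5 averaged 9.11, 8.95 and 7.09 in the low-correlation arrays and 9.22, 9.06 and 7.11 in the others. For ENG the means differed by more than the SD of the other arrays, 0.263. For VWF, PECAM1, CDH5 and CLDN5 they differed by less than the SD in either set of arrays. These differences of means were not tested. The part of these properties in the correlations among members was not tested beyond the alternatives given above.

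A list of 57 other genes known from endothelium had 38 members with a probe set of their own. At the main probe sets CDH5 followed these most closely, with a median r of 0.254 over the 38 genes against 0.0054 over all genes, and an r above 0.3 with 14 of them (36.8% of the list, 1.55% of all genes). Its other probe set had a median r of 0.112 and 4 above 0.3 (10.5%, against 3.82% of all genes). The other PECAM1 probe set had a median r of 0.146 and 12 above 0.3 (31.6%, against 2.31%). For PECAM1 11 of the 38 lay above 0.3 (28.9%, against 3.14% of all genes), and for CLDN5 5 did (13.2%, against 0.784%). ENG had 7 above 0.3 (18.4%, against 8.09%) and VWF had 3 (7.89%, against 10.9%). KDR and RBP7 had 0 of the 38 above 0.3, where 1.63% and 0.0592% of all genes were. The mean of the 38 genes gave r = 0.672 with CDH5, 0.593 with PECAM1, 0.421 with CLDN5, 0.365 with ENG and 0.171 with VWF, but -0.0872 with KDR. These correlations come from the same arrays and share their depth and labelling, so the list is a description and not an independent test.

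**Figure D3:**
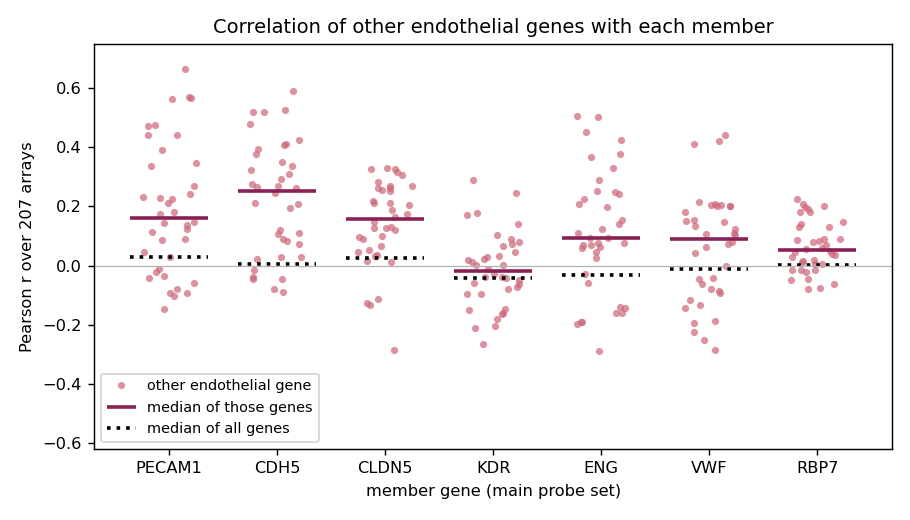
Pearson r over 207 arrays between each of 38 other endothelial genes (points) and each of the 7 genes, with the list median as a solid bar and the median of all genes as a dotted bar. At the main probe sets shown, the list median lies highest for CDH5, at 0.254 against 0.0054 for all genes, and at -0.0192 for KDR.

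The genes most similar to each member were taken among 4879 genes that had a mean above the array's median, the 7 members themselves left out, since their correlations are given above. For PECAM1 they were FABP5 (r = 0.664), a fatty acid-binding protein, CAV1 (0.569), the coat protein of caveolae, TEK (0.566), the angiopoietin receptor, JAG1 (0.564), a Notch ligand, and COL4A2 (0.544), a chain of basement membrane collagen. For CDH5 they were S1PR1 (0.59), the sphingosine-1-phosphate receptor of endothelium, ADGRG1 (0.537), ESAM (0.526), an endothelial adhesion molecule, MCAM (0.521) and FABP5 (0.52). For CLDN5 they were COL4A2 (0.469), GJA4 (0.447), a connexin of vessels, LXN (0.442), RGS5 (0.419), a pericyte gene, and ANGPTL4 (0.412), an inhibitor of lipoprotein lipase.

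Of the 38 other endothelial genes, 4 were among the 5 neighbours of PECAM1 and 4 among those of CDH5. Of the same genes 0 were among the neighbours of CLDN5, ENG, VWF, KDR or RBP7. At most 38 of the 4879 candidates were on that list, so 0 of 5 is near that share. The 5 most similar to ENG were TFE3 (0.652), SF3B4 (0.617), RIPOR1 (0.606), CIC (0.604) and SPTAN1 (0.601), and those most similar to VWF were CUTA (0.646), BAG6 (0.62), SF3A1 (0.618), DYNC1H1 (0.618) and SEC24C (0.617). SF3B4 and SF3A1 are splicing factors and DYNC1H1 is the heavy chain of cytoplasmic dynein, genes in use in nearly all cells. Those of KDR were LTA (0.608), SAG (0.542), CNDP1 (0.518), GMFG (0.516) and TES (0.515). RBP7 had only weak neighbours, led by LXN (0.36), COL4A2 (0.327) and FSCN1 (0.301), then TCF7L1 (0.291) and the pericyte receptor PDGFRB (0.281). Across the mean of all 7 genes the closest was COL4A2 (0.701), followed by GJA4 (0.59), ADGRG1 (0.563), PDGFRB (0.559), ABLIM3 (0.542), ICAM2 (0.534), MCAM (0.512), RAMP2 (0.51), NOS3 (0.50) and MYH9 (0.499).

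Means of gene lists named for neighbouring cells also moved with the junction genes. The mean of 11 measured pericyte and smooth muscle genes gave r = 0.477 with CDH5 and 0.397 with both PECAM1 and CLDN5, and the mean of 6 vessel basement membrane genes gave 0.491, 0.486 and 0.372 with CDH5, PECAM1 and CLDN5. Each of these had an adjusted permutation p of 7.41e-05, and without the 2 farthest animals the pericyte values were 0.456, 0.375 and 0.385. In the pericyte and smooth muscle list TPM2 averaged 13.5, within the range of the muscle genes above, and ACTA2 averaged 12.0. How much of that mean comes from vessel cells was not tested. The mean of 10 slow-fibre genes, which mark oxidative fibres, gave r = 0.341 with CDH5 (adjusted permutation p = 7.41e-05), 0.24 with PECAM1 (0.00289) and 0.212 with CLDN5 (0.00831). ENG gave -0.169 with the slow-fibre mean and -0.0683 without the 2 farthest animals, a relation that rests on those animals. The mean of 9 fibroblast genes gave r = 0.199 with PECAM1 (adjusted permutation p = 0.0141), 0.178 with CLDN5 (0.0308) and 0.151 with CDH5, against -0.341 with ENG and -0.362 with VWF. The pericyte mean ranged from 9.20 to 10.0 over the arrays, the slow-fibre mean from 11.9 to 12.6 and the fibroblast mean from 6.86 to 9.15. Of all relations of the 7 members with the list means and array properties, 50 passed, and these were not confined to vessel lists. Among them VWF gave r = 0.287 with the mean of fast-fibre genes (adjusted permutation p = 0.000265). KDR gave -0.289 with the macrophage mean (0.00042) and -0.276 with the mean of the genes that define muscle (0.000515). CLDN5 gave 0.175 with the macrophage mean (0.0329).

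With fat area, RBP7 was the member gene that passed. In the 66 animals with the largest fat area (15.9 to 26.7 cm2) RBP7 had a lowest value of 4.00, a median of 4.43 and a highest of 5.37, with 4 arrays at the floor. In the 66 with the smallest (8.1 to 13.1 cm2) the values were 4.14, 4.63 and 5.43, with 0 at the floor. The ranges overlapped over nearly their whole length, and the shift lay in the middle of the distributions.

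Per SD of fat area RBP7 fell by 0.0878 ± 0.0203 log2 (slope and its SE), or -5.91%, with a 95% interval from -0.128 to -0.0478 log2. The adjusted p in limma was 0.0273 over 23935 probe sets. It was the only one of the 12 member probe sets to pass, and 0.0752% of all probe sets fell with fat area at this threshold. Its slope was negative in 10 of 10 title number blocks, and among the alternatives it passed in 14 of 16. Leaving out the 13 arrays without spike-in signal gave -0.0844 (adjusted p = 0.0646). With the first component of the Y-linked probe sets EIF1AY and SRY as a covariate the slope was -0.093, as large as before, and the adjusted p was 0.248. EIF1AY itself rose by 0.73 ± 0.115 per SD of fat area (adjusted p = 1.99e-05), and the labels give no sex to set beside it.

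At their main probe sets the junction genes had slopes of like size that did not pass. PECAM1 had a lowest value of 8.61, a median of 9.13 and a highest of 9.75 in the animals with the largest fat area, against 8.56, 9.26 and 10.03 in those with the smallest. Its slope was -0.0826 ± 0.0208 (adjusted p = 0.0719), and that of its other probe set was -0.0693 ± 0.0206 (adjusted p = 0.228). It passed in 4 of 17 alternatives, among them blocks of title numbers as a covariate (-0.0866, adjusted p = 0.032), and came to -0.0524 (adjusted p = 0.805) beside EIF1AY and SRY. The slope was negative in 9 of 10 blocks.

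CDH5 was at 8.26, 9.03 and 9.56 in the animals with the largest fat area (lowest, median and highest) and at 8.53, 9.08 and 9.93 in those with the smallest, with a slope of -0.0712 ± 0.0203 (adjusted p = 0.156). Its other probe set had a smaller slope of -0.0349 ± 0.0257 (adjusted p in limma = 0.833), with a 95% interval from -0.0855 to 0.0157. CLDN5 was at 6.21, 7.06 and 8.10 against 6.0, 7.21 and 8.13, with a slope of -0.0815 ± 0.0309 (adjusted p = 0.499). The ranges overlapped for each of these genes. The other receptors and VWF had smaller slopes, at -0.0129 ± 0.0181 for KDR, -0.0243 ± 0.0229 for ENG and -0.0227 ± 0.0254 for VWF, and the 95% interval of each held 0. At an unadjusted p under 0.05, 5 of the 12 member probe sets differed, against 7.07% of all probe sets.

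All 7 main slopes on fat area were negative, with a median of -0.0712 against -0.00152 over all genes. Since PECAM1, CDH5 and CLDN5 move together, these are not 7 separate observations. The mean of the 7 standardized genes had a slope of -0.168 ± 0.0356 SD units per SD of fat area, given as a description. Within the lower number series PECAM1 had a slope of -0.0988 (adjusted p = 0.0188) and RBP7 one of -0.097 (adjusted p = 0.017). Within the higher series (25 animals with a fat area) 6 of the 7 main slopes were positive, from 0.0137 ± 0.06 for VWF to 0.0727 ± 0.0794 for CLDN5, with PECAM1 at 0.0141 ± 0.0453 and CDH5 at 0.0315 ± 0.0379. RBP7 had -0.0398 ± 0.0505 there. None of the member slopes in that series passed, and the difference between the series was not tested.

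**Figure D4:**
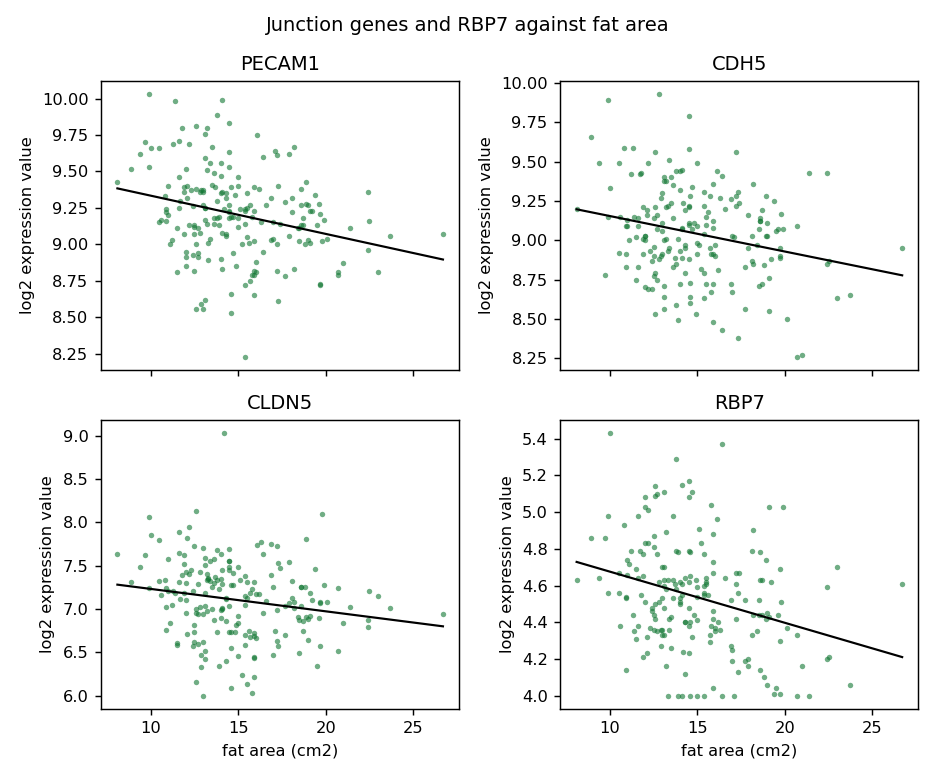
Log2 expression value of PECAM1, CDH5, CLDN5 and RBP7 (vertical axes) against fat area in cm2 (horizontal axes) in the animals with a fat area, 1 point per animal with the fitted line. Each line slopes down, from -0.0712 log2 per SD for CDH5 to -0.0878 for RBP7, and the points scatter widely around it.

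With drip loss, ENG was the member gene that passed. In the 69 animals with the highest drip loss (6.63 to 10.82%) ENG had a lowest value of 5.79, a median of 6.38 and a highest of 7.08, against 5.48, 6.50 and 7.53 in the 69 with the lowest (1.45 to 4.05%). The range at low drip loss was wider at both ends, but the arrays at 5.48 and at 7.53 were low-correlation arrays. Per SD of drip loss ENG fell by 0.068 ± 0.0218 log2 (slope and its SE), or -4.61%, and its adjusted p in limma was 0.047. It was the only 1 of the 12 member probe sets to pass, beside 2.67% of all probe sets that fell with drip loss. At an unadjusted p under 0.05 in limma, 2 of the 12 differed, against 19.3% of all probe sets.

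The call depended on the setting. ENG passed in 6 of 17 alternatives, with an adjusted p between 0.029 and 0.871, and its slope was negative in 9 of 10 blocks. Leaving out the 24 low-correlation arrays gave -0.0541 (adjusted p = 0.139); those arrays had a drip loss of 4.20 ± 1.55% against 5.53 ± 2.25% in the others, and higher ENG as given above. With 5 principal components as covariates the slope was -0.0168 (adjusted p = 0.871). With the mean of 20 immediate early genes as a covariate, which gave r = 0.356 (rho = 0.328) with ENG and of which 13 fell with drip loss, it was -0.0263 (adjusted p = 0.753).

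The other members showed no slope on drip loss that passed. CLDN5 was at 6.16, 7.18 and 8.13 (lowest, median and highest) in the animals with the highest drip loss and at 6.0, 7.01 and 7.81 in those with the lowest, with a slope of 0.0714 ± 0.0304 (adjusted p = 0.16). The main KDR probe set had 0.033 ± 0.0178 and the other -0.0371 ± 0.0196, opposite in sign. PECAM1 had 0.00222 ± 0.0212, CDH5 -0.022 ± 0.0203, VWF 0.00525 ± 0.0249 and RBP7 -0.000352 ± 0.021. For RBP7 the 95% interval ran from -0.0419 to 0.0411.

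**Figure D5:**
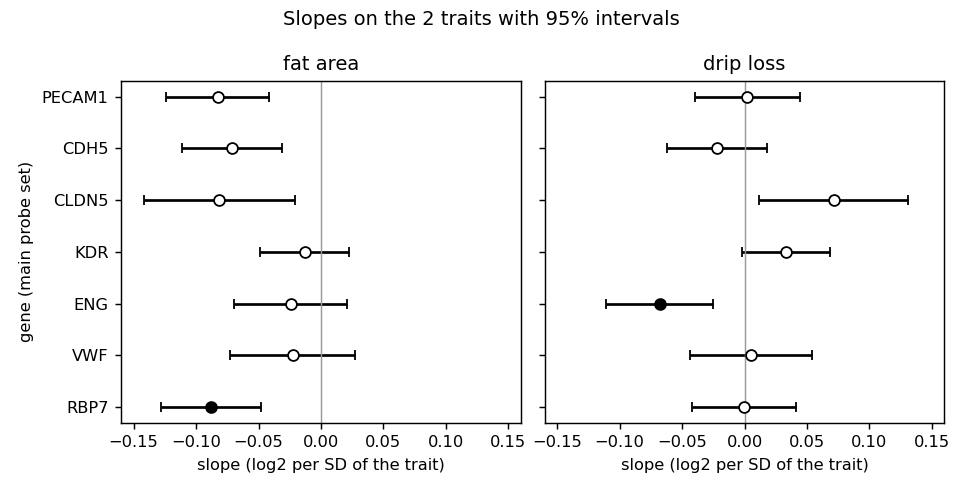
Slope of each endothelial gene on fat area (left) and drip loss (right) in log2 per SD of the trait, with 95% intervals, filled where the adjusted p was under 0.05. RBP7 is filled on the left at -0.0878 and ENG on the right at -0.068, and all 7 points on the left lie below 0.

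The difference between the slopes was tested in a joint fit of both traits. Of the 12 member probe sets 0 passed in limma, beside 0.347% of all probe sets, and 4 had an unadjusted p under 0.05, as 12.6% of all probe sets did. The largest was CLDN5, with drip loss minus fat area at 0.149 ± 0.0413 (adjusted p = 0.067), followed by the second PECAM1 probe set at 0.0999 ± 0.0278 (adjusted p = 0.067). RBP7 had 0.0812, and ENG -0.042 ± 0.0303. So no member gene was shown to relate differently to the 2 traits.

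Few of the other endothelial genes passed. With fat area 1 of 38 fell, the junction adhesion molecule JAM3 by 0.0682 ± 0.0159 (adjusted p = 0.0281), and 0 rose, beside 0.118% and 0.0296% of all genes. Slopes were negative for 27 of the 38, with a median of -0.0202. With drip loss 1 of 38 rose and 2 fell, beside 3.96% and 2.11% of all genes. The haematopoietic and endothelial regulator LMO2 rose by 0.0749 ± 0.0231 (adjusted p = 0.0385), the flow-responsive factor KLF2 fell by 0.0677 ± 0.0191 (adjusted p = 0.0221) and the leukocyte adhesion molecule ICAM1 fell by 0.115 ± 0.035 (adjusted p = 0.0352). None of these shares differs from the background by more than 2 genes.

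Among 12 measured genes of VEGF, angiopoietin and BMP9 signalling, the BMP target ID1 fell with drip loss by 0.12 ± 0.0296 (adjusted p = 0.00852), and 11 did not pass. Over all genes 2.11% fell with drip loss at this threshold. SMAD1, which carries the BMP9 signal below endoglin, had -0.116 ± 0.0398 (adjusted p = 0.0656). VEGFA, the main ligand of KDR, had slopes of -0.0026 ± 0.0153 on drip loss and 0.00323 ± 0.0158 on fat area. With fat area 0 of 12 passed in limma and 1 had an unadjusted p under 0.05 (beside 7.07% of all probe sets), the smallest p belonging to ANGPTL4 at -0.144 ± 0.049 (adjusted p = 0.397).

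Of 6 basement membrane genes, COL4A2, the nearest neighbour of the members' mean, fell with fat area by 0.082 ± 0.0188 (adjusted p = 0.0257), and the laminin chain LAMC1 fell with drip loss by 0.0533 ± 0.0149 (adjusted p = 0.021), with 0 rising for either trait. At this threshold 0.118% of all genes fell with fat area and 2.11% with drip loss. Of 11 pericyte and smooth muscle genes 0 passed in limma for either trait and 3 had an unadjusted p under 0.05 for each (beside 19.3% of all probe sets for drip loss and 7.07% for fat area), the smallest p belonging to RGS5 for drip loss (0.0761 ± 0.0279, adjusted p = 0.0913) and to CALD1 for fat area (-0.0603 ± 0.0198, adjusted p = 0.362). Of 10 genes on a list for retinoid handling, which also held the fatty acid-binding protein FABP3, 0 passed in limma for either trait. Only 1, for fat area, had an unadjusted p under 0.05. The smallest p belonged to ALDH1A1 for drip loss (0.0313 ± 0.0213) and to RARB for fat area (0.0252 ± 0.0109, adjusted p = 0.61).

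Lists of other cell types and states were read in the same way. With fat area 0 members passed in limma of the 7 blood cell, 9 macrophage, 10 lymphocyte, 9 adipocyte, 9 fibroblast, 10 slow-fibre, 9 fast-fibre, 20 immediate early and 10 hypoxia genes. Over all genes 0.148% passed for fat area, so 0 in lists of this size is near that share. At an unadjusted p under 0.05 there were 3 immediate early and 2 hypoxia genes and 0 in the other lists, beside 7.07% of all probe sets. The smallest p among the adipocyte genes belonged to PNPLA2 (-0.022 ± 0.0241, adjusted p = 0.909). With the adipocyte mean as a covariate, RBP7 had a slope of -0.0878 and PECAM1 one of -0.0825. With drip loss the haemoglobin gene HBE1 rose by 0.106 ± 0.026 (adjusted p = 0.00803) and the chemokine CCL5 by 0.0763 ± 0.0247 (adjusted p = 0.05, below the threshold before rounding), while 0 passed in limma in the macrophage, adipocyte, fibroblast and fibre lists, where 1 adipocyte, 3 fibroblast and 2 fast-fibre genes had an unadjusted p under 0.05, beside 19.3% of all probe sets. The immediate early genes fell with drip loss in 13 of 20 cases, led by DUSP1 at -0.273 ± 0.0392, CYR61 at -0.342 ± 0.0504, FOS at -0.491 ± 0.0778 and EGR1 at -0.417 ± 0.0669. In the hypoxia list ADM, a vasodilator peptide of vessels, fell by 0.141 ± 0.0295 (adjusted p = 0.00156), together with HIF1A and SLC2A1. Over all genes 2.11% fell with drip loss at this threshold and 3.96% rose.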

How the data were processed

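Muscle of 207 pigs was measured on Affymetrix Porcine Genome Arrays, 1 per animal. Per the submitters' processing notes the authors used GCOS 1.1.1 and PLIER, and the deposited log2 values, with a floor at 4 that holds 1.43% of them, were used as they stand. Any scaling between arrays is not given in the sources used here, and array medians ran from 5.96 to 6.18.

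From the deposited log2 values limma fitted each of 23935 probe sets (24123 less 188 controls) against a trait in SD units, with version 3.58.1 in R 4.3.3, two-sided, with Benjamini-Hochberg adjustment over all of them and a threshold of 0.05. The labels give single samples of separate animals, whose number sets the precision. Symbols came from the array annotation (10069 probe sets with 1 symbol, 198 with several, 13668 with none), and the probe set with the highest mean stood for a gene. Pairs of members (21, adjusted over the pairs) and members against list means were tested with 100000 permutations, two-sided. Low-correlation arrays lay over 3 scaled MAD below the median. All members were named, the passing genes of each list (at most 4 by smallest p, otherwise the one with the smallest p), and the 5 most similar genes to a member (10 for the mean). The members and the 16 gene lists were chosen with earlier results of these data known. The fit was tested on simulated data first. A planned count of promoter motifs was not run, and no sequences are used here.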

Additional observations from a re-analysis of the deposited data

How the results depend on the processing

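Up to 17 alternatives were tried for each trait, 1 of them (blocks of title numbers as a covariate without the low-correlation arrays) chosen after seeing the data. For fat area the count of member probe sets that passed was 1. It was 2 with quantile normalization, blocks as a covariate, normal scores of the trait or the slow-fibre mean as a covariate, PECAM1 being the added one. It was 0 without the arrays lacking spike-in signal, with EIF1AY and SRY as a covariate, and among probe sets above the median mean, where RBP7 is not included; at an unadjusted p under 0.05 these 3 held 5, 4 and 4. For drip loss the count was 1, which is ENG, and 0 with quantile normalization, blocks, number series, 5 principal components, the 3' to 5' difference, EIF1AY and SRY, the immediate early mean or the slow-fibre mean as a covariate, without the low-correlation arrays, without the arrays lacking spike-in signal, and with blocks and without the low-correlation arrays together. At an unadjusted p under 0.05 these held 1 to 4. The number of probe sets called over the whole array fell as well, to 13 with 5 components and 1 with the immediate early mean, against 1103 in the fit as reported. Single slopes changed sign in 25 of 396 cases, none of them a slope that had passed. The count of member pairs that passed lay between 8 and 12 over 9 alternatives, and VWF with KDR was 0.244 when all probe sets of a gene were averaged, against -0.117; the cause was not tested. The slope of the members' mean was run under 3 of the alternatives, with values between -0.18 and -0.162 for fat area, and the slope of PECAM1 alone came to -0.0524 with EIF1AY and SRY. No paired analysis was possible because the labels give a single group. RBP7 lies close to the floor, which limits what its low end can show.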
